A study of Mus musculus with 29 samples.

Results

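The genes described here are 39 genes of hepatic stellate cells and of liver fibrosis, taken as a named list from a deposited expression table of 22187 mouse genes. The rule is a list of names with no threshold on values, but it was drawn up with earlier results of these data known. They comprise 11 collagen chains, the contractile and filament genes Acta2, Tagln, Des and Vim, the stellate cell genes Lrat and Reln, 4 ligands, 3 receptors, 5 matrix proteases and their inhibitors, 3 crosslinking enzymes, 6 matrix glycoproteins and proteoglycans, and the surface marker Thy1. All 39 were in the table, and all 39 passed the filter on low values in every fit. RNA was sequenced from livers of C57BL/6 mice, and every animal, controls included, had received 25 mg/kg of the liver carcinogen DEN at 2 weeks of age. They were fed for 18 weeks: the series text speaks of liquid ethanol and pair-fed mice, but the labels of the samples read HFD_alcohol and HFD, and the latter names, shortened to alcohol and HFD, are used. The alcohol group held 5 non-tumour livers labelled IL17RA-/-, 5 labelled WT, 4 tumours labelled IL17RA-/- and 3 labelled WT. The HFD group held 3 of each kind. IL17RA is a receptor chain for IL-17 cytokines. Libraries are named below by tissue, diet, genotype label and replicate number. The labels do not say which libraries came from 1 animal, and the p-values given here reflect only how much single libraries of a group differ, which may be technical.

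Hepatic stellate cells are the pericytes of the liver sinusoid. At rest they store vitamin A as retinyl ester, which LRAT makes, and after injury they become contractile, matrix-producing myofibroblasts under TGF-beta and PDGF signals. The matrix they lay down is rich in fibrillar collagens; lysyl oxidases crosslink it, and matrix metalloproteinases and their TIMP inhibitors govern its turnover. Several members have other sources in liver: vascular smooth muscle makes Acta2 and Tagln, endothelial cells make type IV collagen, and hepatocytes make plasma fibronectin. In bulk tissue, fewer cells of a type and less RNA per cell cannot be told apart.

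Counts recovered from the deposited values came to 4653421 to 9660582 per non-tumour library and 3213697 to 9169114 per tumour library, and the deposited values are CPM, counts scaled to the same total in each library. A floor of 3 counts was 0.311 to 0.934 CPM. Il17ra was not lower in libraries labelled IL17RA-/-: its group means there were 24.5 and 26.1 CPM in non-tumour liver, beside 26.3 and 27.5 CPM in WT, and 59.4 and 50.4 CPM in tumours, beside 32.8 and 33.2 CPM. Each statement on genotype therefore refers to the label. The tumour label was matched by its markers, since Afp averaged 307 CPM in tumours and 26.3 CPM in non-tumour liver, but non-tumour HFD WT 1 and HFD IL17RA-/- 3 held 141 and 155 CPM of Afp. These 2 libraries, tumour HFD WT 4 (which had the highest Cyp2e1 among tumours, 1593 CPM) and tumour alcohol IL17RA-/- 5 are the 4 libraries left out together below. They were picked on inspection in earlier work on these data, by no set criterion, and tumour alcohol IL17RA-/- 5 does not stand apart by its tumour markers (Afp at 486 and Gpc3 at 210.3 CPM). Non-tumour alcohol IL17RA-/- 2 and 4 were the lowest or next to lowest non-tumour libraries for many members and for the summed Kupffer cell markers.

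Promoter sequence was available from RefSeq (GRCm38.p6) for 24 members, as the 250 bases upstream of the start site. The 3 windows below were chosen because they belong to a collagen that rose in tumours (Col3a1), a stellate cell gene that fell (Lrat) and another that rose (Reln), and because none overlaps an annotated exon. They lie at chr1:45311288-45311537 on the plus strand, chr3:82903975-82904224 on the minus strand and chr5:22344706-22344955 on the minus strand. Capitals mark the motif CCAAT, the motif TATAAA and the motif GGGCGG on either strand.
Col3a1: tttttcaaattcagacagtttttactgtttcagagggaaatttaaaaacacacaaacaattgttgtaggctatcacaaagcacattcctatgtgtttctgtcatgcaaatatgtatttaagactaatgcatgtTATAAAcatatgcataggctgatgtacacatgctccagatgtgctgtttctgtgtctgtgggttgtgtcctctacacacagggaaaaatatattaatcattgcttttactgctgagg
Lrat: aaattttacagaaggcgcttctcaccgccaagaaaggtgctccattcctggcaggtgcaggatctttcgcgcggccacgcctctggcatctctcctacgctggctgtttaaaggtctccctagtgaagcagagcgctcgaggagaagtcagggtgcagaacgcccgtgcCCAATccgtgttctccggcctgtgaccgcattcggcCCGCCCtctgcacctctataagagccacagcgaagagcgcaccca
Reln: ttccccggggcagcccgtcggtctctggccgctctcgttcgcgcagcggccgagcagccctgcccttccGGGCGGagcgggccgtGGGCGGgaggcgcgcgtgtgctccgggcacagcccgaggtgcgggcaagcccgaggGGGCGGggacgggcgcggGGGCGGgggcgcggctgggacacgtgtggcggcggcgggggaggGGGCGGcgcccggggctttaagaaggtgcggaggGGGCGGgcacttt
The Col3a1 window held 1 TATAAA and was 35.2% G and C, the Lrat window held 1 CCAAT and 1 GGGCGG at 59.2%, and the Reln window held 6 GGGCGG at 80.0%. Of the 24 matched members, 15 (62.5%) held GGGCGG, against 32.7% of all 32851 windows of this length. Col6a2 and Tgfbr1 had more than 1 window, and a match in any of them counted. The shares of members and of single windows are therefore not strictly alike. CCAAT occurred in 10 (41.7%, against 33.8%), CAGAC in 11 (45.8%, against 42.2%) and TATAAA in 3 (12.5%, against 12.4%), each searched on both strands. The CArG box, searched on both strands as its full consensus, occurred in none of the 24 and in 1.47% of all windows. These are letter matches in a fixed window and say nothing of binding. Some members also lie side by side in the genome (GRCm38, GENCODE M21). Col4a1 and Col4a2, which encode 2 of the chains of type IV collagen, are arranged head to head on chromosome 8 with gene spans that overlap by 22 bases. Col3a1 and Col5a2 lie 24614 bases apart on chromosome 1, and Dcn and Lum 46984 bases apart on chromosome 10.

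Among genes, levels can be compared only per length, and the values in this paragraph are mean CPM per kilobase of annotated exon. In non-tumour liver Fn1 stood first of the 39 at 168, followed by Dcn at 44.1, Col14a1 at 22.9, Col4a1 at 16.3 and Sparc at 16.1; the lowest were Thy1 at 0.266, Lox at 0.262 and Tgfb2 at 0.181. In tumours Fn1 again stood first, at 438, followed by Col4a1 at 39.8, Sparc at 33.3, Col3a1 at 29.2 and Col4a2 at 26.9. Between non-tumour liver and tumours, Acta2 moved from place 30 to place 14, Col1a1 from 22 to 13, Dcn from 2 to 8 and Lrat from 8 to 27. The order of the matrix genes thus differed between tissues, with the stellate cell gene Lrat and the small proteoglycan Dcn lower and the myofibroblast genes Acta2 and Col1a1 higher in tumours.

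Tumours held more transcript of most of these genes. With tumour and non-tumour liver compared within each of the 4 strata of diet and genotype label and the 4 differences averaged, 28 of the 39 members rose, 2 fell and 9 did not pass the test. A gene is said to have risen or fallen where its Benjamini-Hochberg adjusted p, over all 13586 genes tested by limma, was under 0.05. The tissues differed broadly: 63.6% of all genes passed this test, 36.6% higher and 27.0% lower. Differences are given as log2 differences of CPM + 1 with their standard error, a scale that understates the change of genes near 1 CPM. The median log2 difference of the 39 was 0.74, with 34 above 0, beside 0.09 for all genes tested. With the 4 libraries left out the counts were 29 higher and 2 lower. Without non-tumour alcohol IL17RA-/- 2 and 4 they were 25 higher and 3 lower, with a median of 0.63. With limma-voom on the recovered counts they were 26 higher and 3 lower. For 4 members, Acta2, Tgfb2, Col4a1 and Col4a2, every tumour library lay above every non-tumour library, which was so for 2.84% of all genes. No member had every tumour library below every non-tumour library, which was so for 3.30% of genes.

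**Figure D1:**
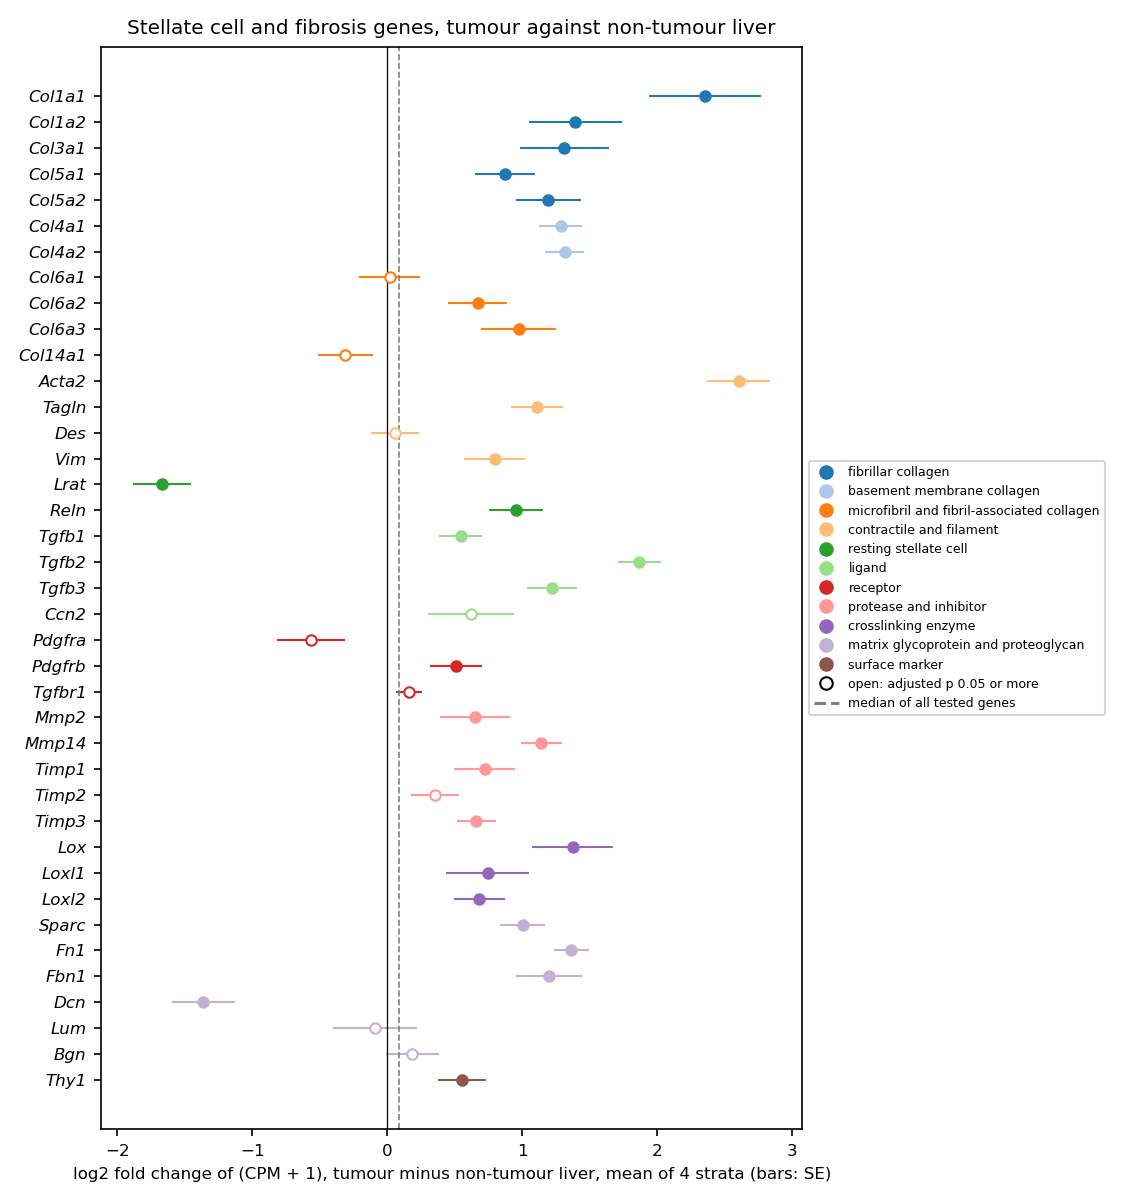
Log2 difference of CPM + 1 between tumour and non-tumour liver (x axis) for each of the 39 genes (y axis), as the mean of 4 strata; bars are standard errors, filled points have an adjusted p under 0.05 and colours give the role. Acta2 lies farthest right at 2.60 and Lrat farthest left at -1.67, and the dashed line marks the median of all tested genes.

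Of the 4 contractile and filament genes 3 rose, and Acta2 had the largest log2 difference of the 39. Acta2, which encodes the alpha smooth muscle actin of myofibroblasts and smooth muscle, ran from 0.984 through a median of 2.55 to 4.77 CPM in the 16 non-tumour libraries and from 7.03 through 22.9 to 61.1 CPM in the 13 tumour libraries. The tissues did not overlap, and the means differed 9.02-fold (log2 difference 2.60 ± 0.24, adjusted p = 8.16e-10, limma). Tagln, the actin-binding protein transgelin, rose by less, from a mean of 7.62 ± 2.19 CPM (SD, n = 16) to 19.03 ± 7.66 CPM (SD, n = 13; log2 difference 1.11 ± 0.20). For Tagln, 11 of 13 tumour libraries lay above every non-tumour library. Vim, the intermediate filament of mesenchymal cells, rose from a mean of 46.0 to 76.8 CPM (log2 difference 0.80 ± 0.23). Des, the filament that marks rodent stellate cells, stood at a mean of 4.39 CPM in non-tumour liver and 4.63 CPM in tumours, a log2 difference of 0.06 ± 0.18 (adjusted p = 0.777, limma).

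All 5 fibrillar collagen chains rose. Col1a1, a chain of type I collagen, ran from 1.12 through a median of 12.8 to 63.0 CPM in non-tumour liver and from 18.1 through 70.0 to 243 CPM in tumours, a 4.93-fold difference of means (log2 difference 2.36 ± 0.41, adjusted p = 2.33e-05, limma). Its tissues overlapped: 7 tumour libraries lay above every non-tumour library and 11 non-tumour libraries below every tumour library. Its partner chain Col1a2 differed 2.74-fold (log2 difference 1.39 ± 0.34) and Col3a1, the type III chain, 2.43-fold (1.31 ± 0.33). The type V chains, which nucleate type I fibrils, differed by 0.87 ± 0.22 (Col5a1) and 1.19 ± 0.24 (Col5a2) on the log2 scale. Tumour HFD WT 5 was the highest tumour library for all 5 chains, with Col3a1 at 738 CPM, and tumour alcohol WT 4 the lowest, with Col3a1 at 83.2 CPM.

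The basement membrane chains Col4a1 and Col4a2 rose in step. Col4a1 ran from 68.2 through a median of 112 to 201 CPM in non-tumour liver and from 204 through 301 to 416 CPM in tumours (log2 difference 1.29 ± 0.16, adjusted p = 1.48e-07, limma). Col4a2 ran from 43.3 through 65.7 to 108 CPM and from 110 through 179 to 246 CPM (1.32 ± 0.14, adjusted p = 1.85e-08). Neither chain overlapped between tissues. Of the beaded-filament and fibril-associated collagens, Col6a2 (log2 difference 0.67 ± 0.22) and Col6a3 (0.98 ± 0.28) rose. Col6a1, the third chain of the type VI trimer, had means of 14.1 and 14.9 CPM and a log2 difference of 0.02 ± 0.23, and Col14a1 had one of -0.31 ± 0.20.

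**Figure D2:**
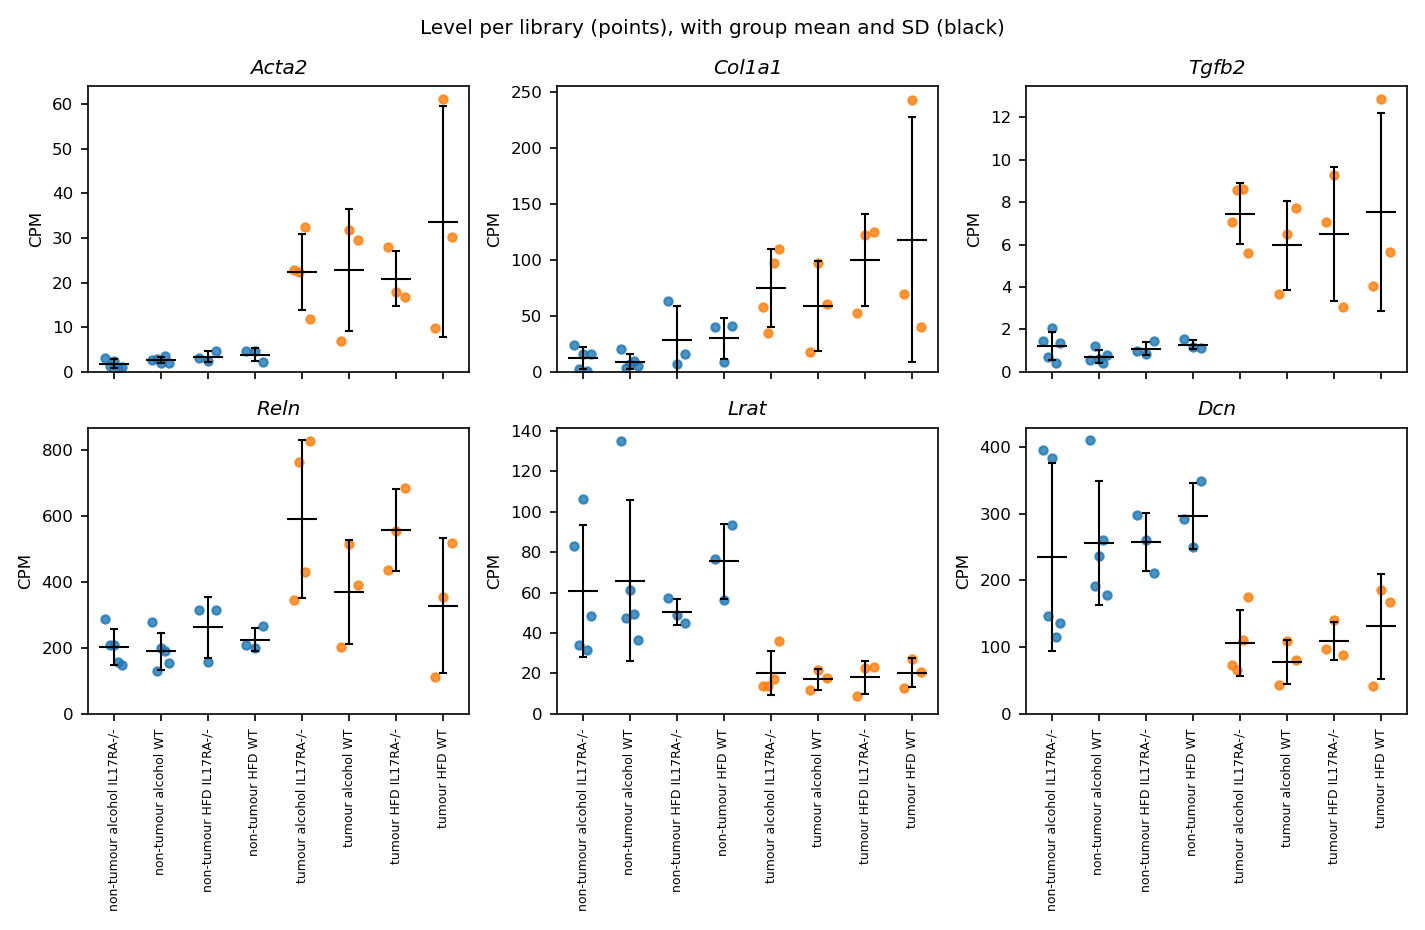
CPM (y axis) of 6 genes in each of the 29 libraries (points), by group (x axis), with the group mean and SD in black; blue is non-tumour liver and orange tumour. Acta2 and Tgfb2 separate the tissues fully, Col1a1 and Reln are mostly higher in tumours, and Lrat and Dcn are mostly lower.

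The 2 stellate cell genes went opposite ways. Lrat, which esterifies retinol for storage, ran from 31.6 through a median of 52.7 to 135 CPM in non-tumour liver and from 8.73 through 17.7 to 36.1 CPM in tumours, 3.32-fold lower by means (log2 difference -1.67 ± 0.22, adjusted p = 3.00e-07, limma). In 12 of 13 tumour libraries Lrat lay below every non-tumour library. Reln, a secreted glycoprotein that stellate cells and lymphatic endothelium make, ran from 129 through 204 to 315 CPM in non-tumour liver and from 112 through 436 to 826 CPM in tumours (log2 difference 0.95 ± 0.20, adjusted p = 0.000229, limma). For Reln, 11 of 13 tumour libraries lay above every non-tumour library and 1, tumour HFD WT 4, below every one.

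All 3 TGF-beta ligand genes rose. Tgfb2 ran from 0.422 through a median of 1.05 to 2.08 CPM in non-tumour liver and from 3.07 through 7.07 to 12.8 CPM in tumours, with no overlap and a 6.58-fold difference of means (log2 difference 1.87 ± 0.16, adjusted p = 3.07e-10, limma). In 1 non-tumour library Tgfb2 had fewer than 3 counts. Tgfb3 rose from a mean of 1.69 ± 0.717 CPM (SD, n = 16) to 5.72 ± 2.43 CPM (SD, n = 13), and 12 of 13 tumour libraries exceeded every non-tumour library. Tgfb1, the best studied profibrotic ligand, rose least, from a mean of 8.21 to 12.5 CPM (log2 difference 0.54 ± 0.16). Ccn2, a matricellular protein induced by TGF-beta, had means of 31.6 and 44.7 CPM and did not pass (0.62 ± 0.32, adjusted p = 0.0891, limma). Among the receptors, Pdgfrb, the main PDGF receptor of stellate cells, rose from a mean of 17.1 to 25.1 CPM (0.51 ± 0.19, adjusted p = 0.0225), a call lost without non-tumour HFD IL17RA-/- 3 (adjusted p = 0.0521) or tumour HFD WT 5 (0.0551). Pdgfra had means of 17.6 and 13.3 CPM (-0.56 ± 0.25, adjusted p = 0.0525), and the type I TGF-beta receptor gene Tgfbr1 had means of 78.5 and 88.5 CPM (0.17 ± 0.10, adjusted p = 0.135).

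Of the proteases and inhibitors, 4 of 5 rose. Mmp14, the membrane-bound activator of MMP2, rose from a mean of 25.6 ± 8.47 CPM (SD, n = 16) to 58.0 ± 12.9 CPM (SD, n = 13; log2 difference 1.14 ± 0.15), with 11 of 13 tumour libraries above every non-tumour library. The gelatinase gene Mmp2 rose from 3.84 to 7.33 CPM (0.65 ± 0.26), but lost its call in 8 of 35 other settings, among them limma-voom on the recovered counts (adjusted p = 0.0773). Timp3 rose from 52.9 to 84.5 CPM (0.66 ± 0.15) and Timp1 from 0.978 to 2.41 CPM (0.72 ± 0.23); Timp1 had fewer than 3 counts in 5 non-tumour libraries and 1 tumour library. Timp2 had means of 10.9 and 15.3 CPM (0.35 ± 0.18, adjusted p = 0.0828, limma).

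The lysyl oxidase genes, whose products crosslink collagen and elastin, all rose. Lox, with fewer than 3 counts in 4 non-tumour libraries, ran from 0.141 through a median of 1.04 to 3.49 CPM in non-tumour liver and from 0.947 through 4.39 to 21.01 CPM in tumours (log2 difference 1.37 ± 0.30, adjusted p = 0.000289, limma). Loxl2 rose from a mean of 13.8 to 22.9 CPM (0.68 ± 0.19). Loxl1 rose from 1.69 to 4.38 CPM (0.74 ± 0.31, adjusted p = 0.0376), and this call was lost in 14 of 35 other settings, including without tumour HFD WT 5 (0.0947).

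The matrix glycoproteins and proteoglycans divided. Fn1, fibronectin, rose from a mean of 1968 ± 400 CPM (SD, n = 16) to 5123 ± 1091 CPM (SD, n = 13; log2 difference 1.37 ± 0.13, adjusted p = 1.28e-09, limma); 12 of 13 tumour libraries lay above every non-tumour library, the exception being tumour HFD WT 4 at 2496 CPM. Sparc, a collagen-binding matricellular protein, rose 2.07-fold by means and Fbn1, the microfibril protein fibrillin-1, 2.51-fold. Dcn, decorin, which binds collagen fibrils and TGF-beta, ran from 115 through a median of 255 to 410 CPM in non-tumour liver and from 41.3 through 96.7 to 185 CPM in tumours (-1.36 ± 0.23, adjusted p = 1.74e-05, limma). In 9 of 13 tumour libraries Dcn lay below every non-tumour library. Its neighbour Lum, lumican, had means of 15.6 and 16.5 CPM and, on the log2 scale, a difference of -0.09 ± 0.31, and Bgn, biglycan, had one of 0.19 ± 0.20. Thy1, a surface marker of fibroblasts and T cells, rose from 0.796 to 2.12 CPM (0.55 ± 0.18) but had fewer than 3 counts in 6 non-tumour libraries.

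Within single strata, with 3 to 5 libraries a group, fewer members passed. In alcohol-fed livers labelled IL17RA-/-, 20 members rose and 2 fell (39.9% of all genes passed, 21.8% higher and 18.1% lower), with a median log2 difference of 1.04 beside 0.08 for all genes. In alcohol-fed WT livers 10 rose and 2 fell (35.7% of all genes passed, 16.6% higher and 19.2% lower; median 0.83 beside 0.01). On HFD, 11 rose and 2 fell in livers labelled IL17RA-/- (40.4% of all genes passed, 23.9% higher and 16.5% lower; median 0.81 beside 0.15), and 7 rose and 1 fell in WT (15.3% of all genes passed, 7.64% higher and 7.61% lower; median 0.61 beside 0.07). Acta2, Tgfb2, Tgfb3, Col4a1, Col4a2 and Fn1 rose and Lrat fell in all 4 strata. Acta2 was 3.06, 2.36 and 4.76 CPM in the non-tumour HFD livers labelled IL17RA-/- and 28.0, 17.9 and 16.8 CPM in the tumours, and in WT 4.62, 4.77 and 2.14 CPM and 9.75, 61.1 and 30.3 CPM. The counts per stratum moved with single libraries. Without tumour alcohol WT 4, 20 members passed in alcohol WT, and without non-tumour alcohol WT 1, 19. In HFD WT, 3 passed without non-tumour replicate 2, 5 without non-tumour replicate 3, 13 without tumour replicate 4 and 4 without tumour replicate 5; in HFD IL17RA-/-, 8 passed without non-tumour replicate 2, tumour replicate 5 or tumour replicate 6. Whether the tissue difference itself differed by genotype label was tested as an interaction within each diet. No member passed (0.00% of all genes on alcohol, 0.00736% on HFD), and 0 of 39 had an unadjusted p under 0.05 on either diet, beside 2.49% of all genes on alcohol and 14.9% on HFD; limma-voom also called 0.

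**Figure D3:**
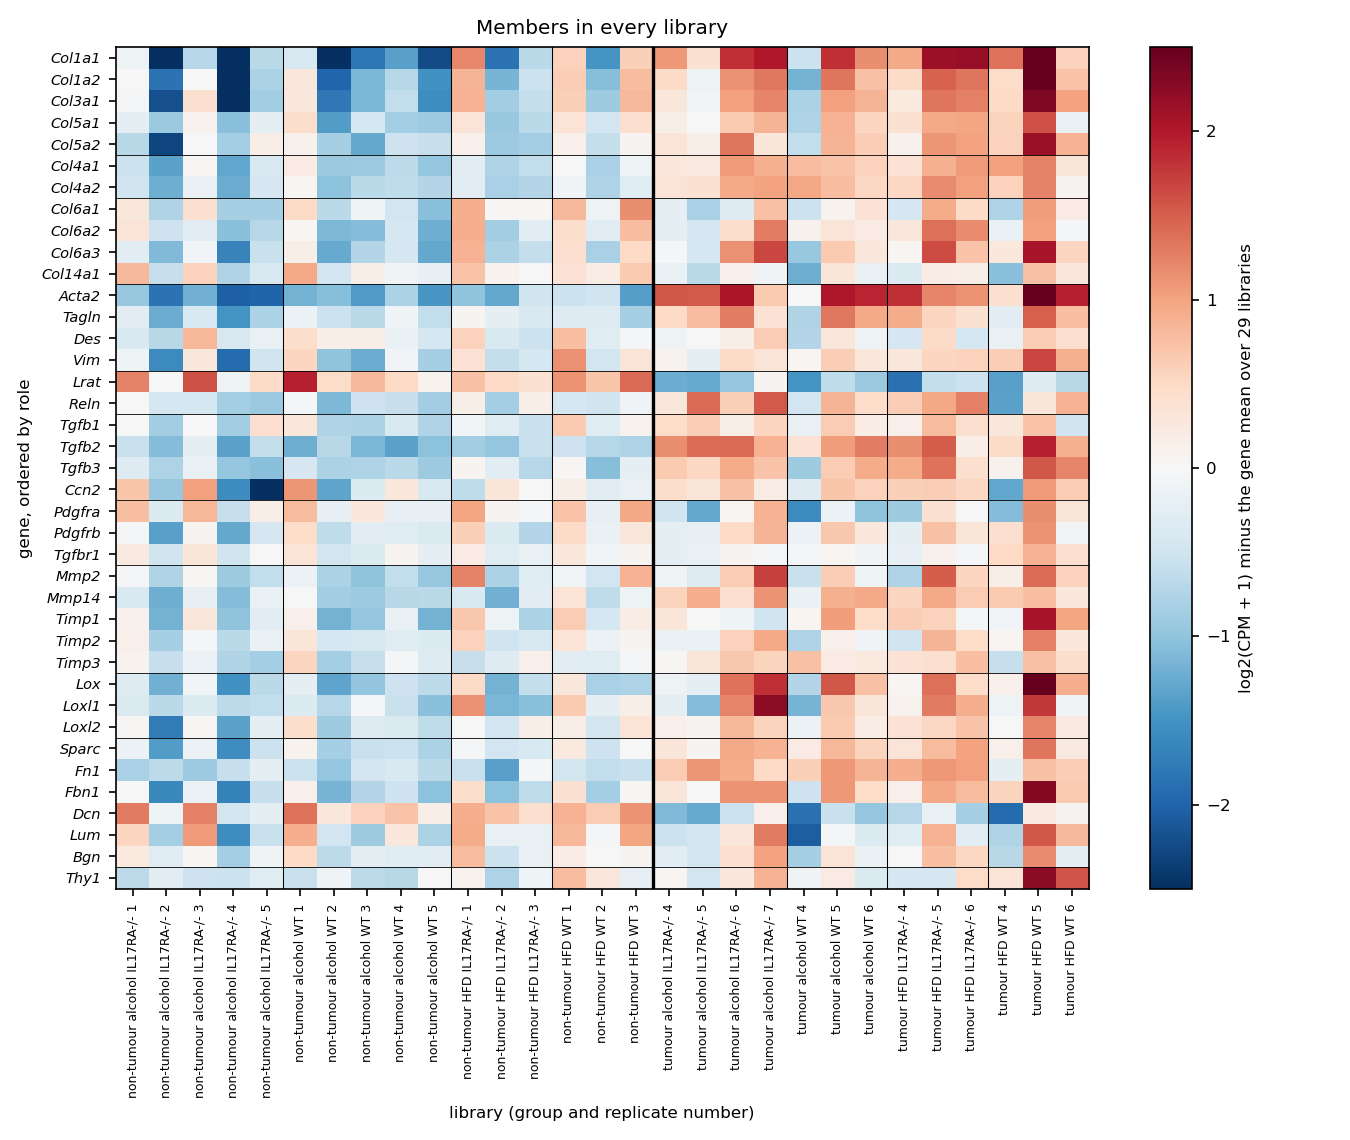
Log2(CPM + 1) of each of the 39 genes (rows, ordered by role) in each of the 29 libraries (columns, by group and replicate number), minus the mean of the gene over all libraries. Most rows turn from blue to red at the thick line between non-tumour liver and tumours, Lrat and Dcn turn the other way, and non-tumour alcohol IL17RA-/- 2 and 4 are blue in most rows.

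Other stellate cell genes mostly went the way of Lrat. Of 20 further genes known from stellate cells, 19 were tested, with a median log2 difference of -1.01. Of these 14 (73.7%, beside 27.0% of all genes) fell and 2 (10.5%, beside 36.6%) rose. Colec10, a secreted collectin, fell from a mean of 81.8 to 18.5 CPM (log2 difference -2.07) and Vipr1, a receptor for vasoactive intestinal peptide, from 44.0 to 12.9 CPM (-1.68), both without overlap between tissues. Nes, the filament protein nestin, rose from 6.13 to 11.8 CPM (0.84), also without overlap. Gfap, a filament gene used as a stellate cell marker, did not pass the filter on low values. The summed level of this list ran from 465 to 912 CPM in non-tumour libraries and from 220 to 454 CPM in tumours, with no overlap.

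Matrix genes outside the 39 differed by list, beside 36.6% of all genes higher and 27.0% lower. Of 27 other matrix proteins tested, 18 (66.7%) rose and 1 fell, with a median log2 difference of 0.72. Nid1, the basement membrane linker nidogen, rose from a mean of 73.0 to 563 CPM (3.01) and Lama5, a laminin chain, from 8.29 to 82.0 CPM (2.997), while Efemp1 fell from 14.4 to 8.16 CPM. Of 11 other collagens 4 (36.4%) rose and 2 fell: the type IV chains Col4a3 (5.75 to 62.7 CPM) and Col4a5 (4.12 to 25.4 CPM) rose most, and Col5a3 (26.6 to 9.71 CPM) and Col27a1 (15.4 to 9.19 CPM) fell. Of 20 genes of collagen processing and crosslinking tested 11 (55%) rose and 3 fell. The procollagen protease gene Adamts14 rose from 2.75 to 40.03 CPM and the lysyl oxidase gene Loxl4 from 3.61 to 31.5 CPM, while P4ha2, a prolyl hydroxylase subunit, fell from 7.39 to 3.75 CPM and Plod1, a lysyl hydroxylase, from 76.6 to 52.4 CPM. Of 13 other proteases and inhibitors tested 4 (30.8%) rose and 2 fell. Plat, tissue plasminogen activator, rose from 2.42 to 27.9 CPM, and Mmp19 fell from 77.2 to 65.6 CPM.

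Of 28 further TGF-beta pathway genes 17 (60.7%, beside 36.6% of all genes) rose and 2 (7.14%, beside 27.0%) fell. Their median log2 difference was 0.44. Ltbp3, which tethers latent TGF-beta to matrix, rose most, from a mean of 3.03 to 12.7 CPM; Tgfbi (86.9 to 55.8 CPM) and Ltbp1 (7.32 to 4.86 CPM) fell. Of 15 PDGF ligands and contractile genes tested 10 (66.7%) rose and 1 (6.67%) fell. Myh11, smooth muscle myosin, rose from 3.95 to 13.7 CPM and Tpm1, a tropomyosin, from 49.4 to 137 CPM, whereas Tpm2 fell from 19.2 to 4.99 CPM.

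Marker genes of other cells differed between tissues in some lists and little in others, beside 36.6% of all genes higher and 27.0% lower. Of 14 Kupffer cell markers 12 (85.7%) fell and 0 rose. Their summed level ran from 520 to 2592 CPM in non-tumour liver and from 300 to 1004 CPM in tumours. Cd163 fell from a mean of 28.4 to 2.29 CPM. Of 16 endothelial markers 1 (6.25%) rose and 3 (18.8%) fell, both under the shares of all genes. Their sums were 707 to 1051 CPM and 473 to 1013 CPM. The sinusoidal marker Clec4g fell from 46.3 to 25.5 CPM. Of 8 portal fibroblast and mesothelial markers tested 5 (62.5%) rose, 3 of which (Eln, Fbln2 and Mfap4) also stand among the other matrix proteins. The others that rose were Cd34 (2.57 to 11.6 CPM) and Entpd2 (3.63 to 17.4 CPM). The mesothelial markers Msln (1.64 and 1.42 CPM), Upk3b (1.11 and 0.708 CPM) and Gpm6a (2.89 and 3.21 CPM) did not rise. The sums of the list ran from 9.35 to 29.4 CPM and from 36.3 to 79.5 CPM. Of 9 cholangiocyte markers 8 (88.9%) rose, with sums of 29.8 to 143 CPM and 99.3 to 1690 CPM. Most of these sums was Spp1, at means of 54.9 and 454 CPM, which also stands among the other matrix proteins. Krt19 had means of 0.468 and 2.82 CPM and Epcam 0.992 and 4.19 CPM. Of 9 markers of monocyte-derived macrophages 4 rose, with sums of 19.3 to 297 CPM and 147 to 418 CPM, and of 8 T and NK cell markers tested 1 (Cd3e) rose. Of 13 hepatocyte genes 3 (23.1%) rose and 9 (69.2%) fell: Apoa1 and Alb rose and Cyp2e1 fell from 6544 to 563 CPM. All 6 tumour markers tested rose. The part of these shifts in cell markers in the differences of the 39 genes was not tested.

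Diet left no member past the test. Alcohol and HFD were compared within each tissue and genotype label, and no member passed in any of the 4 comparisons (0.00% of all genes passed in non-tumour WT, non-tumour IL17RA-/- and tumour IL17RA-/-; 0.00754% in tumour WT). Unadjusted p-values under 0.05 were found for 3, 2, 0 and 3 members, in that order, that is for 7.69%, 5.13%, 0% and 7.69% of the 39, beside 4.22%, 5.81%, 2.21% and 16% of all genes. Limma-voom called 0 members in each. The members nevertheless leaned to lower values on alcohol. In non-tumour WT liver 38 of 39 log2 differences were below 0, with a median of -0.42, beside -0.08 for all genes. In non-tumour liver labelled IL17RA-/- 33 were below 0, with a median of -0.33 beside 0.05. Averaged over both labels, all 39 were below 0 in non-tumour liver, with a median of -0.33 beside -0.01 for all genes, and 6 members (15.4%, beside 5.73% of all genes) had an unadjusted p under 0.05 (lowest adjusted p = 0.811, limma). These genes share libraries, so the 39 differences are not independent of each other.

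Single livers show how wide the spread was. Col1a1 was 20.05, 3.52, 6.95, 9.75 and 4.85 CPM in the alcohol-fed WT non-tumour livers and 40.3, 9.03 and 40.7 CPM in the HFD ones. In livers labelled IL17RA-/- it was 24.2, 2.93, 15.9, 1.12 and 16.4 CPM on alcohol and 63.0, 6.66 and 16.4 CPM on HFD. The diets overlapped under both labels. Averaged over both labels, Col1a1 had a log2 difference of -1.38 ± 0.59, Col6a1 one of -0.82 ± 0.28 (means of 10.8 and 19.5 CPM) and Acta2 one of -0.53 ± 0.21 (2.22 and 3.62 CPM), each with an adjusted p of 0.811 (limma). Non-tumour alcohol IL17RA-/- 2 and 4, the lowest libraries here, weighed on the lean in that label. Without them its median was 0.06, with 25 of 39 above 0, beside 0.13 for all genes. The median averaged over both labels was then -0.15, with 35 below 0, beside 0.02 for all genes. As these 2 libraries were low, leaving them out raises both medians by construction. Without the 4 libraries named above the averaged median was -0.35, with 38 below 0, beside -0.01 for all genes. The summed Kupffer markers were 527 and 520 CPM in those 2 livers, against 1030 to 2592 CPM in all 6 HFD livers, and their summed other stellate cell genes 475 and 465 CPM against 512 to 698 CPM; the part of these in the lean was not tested.

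In tumours the median log2 difference of alcohol against HFD was -0.46 in WT, with 32 members below 0, beside -0.17 for all genes. With the CPM rescaled by median ratios, which moved the median of all genes to -0.01, that of the members was -0.30. In tumours labelled IL17RA-/- it was -0.13, with 25 below 0, beside -0.0043 for all genes. Without the 4 libraries the median was -0.71 in WT, with 35 below 0, beside -0.10 for all genes. In tumours labelled IL17RA-/- it was then -0.03, beside 0.009 for all genes. Tgfbr1 was 77.9, 83.3 and 75.9 CPM in alcohol WT tumours and 116, 149 and 109 CPM in HFD WT tumours (log2 difference -0.64 ± 0.15, adjusted p = 0.170, limma). Vim (53.8, 79.9 and 62.6 CPM against 80.5, 168 and 97.8 CPM) and Thy1 (0.947, 1.39 and 0.606 CPM against 1.62, 8.92 and 5.13 CPM) also did not overlap. Within WT tumours these 3 genes were higher in every HFD library than in every alcohol library, but none passed the test. The share of all genes without overlap between these groups was not counted, so these 3 cannot be set against other genes. An unadjusted p under 0.05 was found for 7.69% of the 39 and for 16% of all genes (limma).

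**Figure D4:**
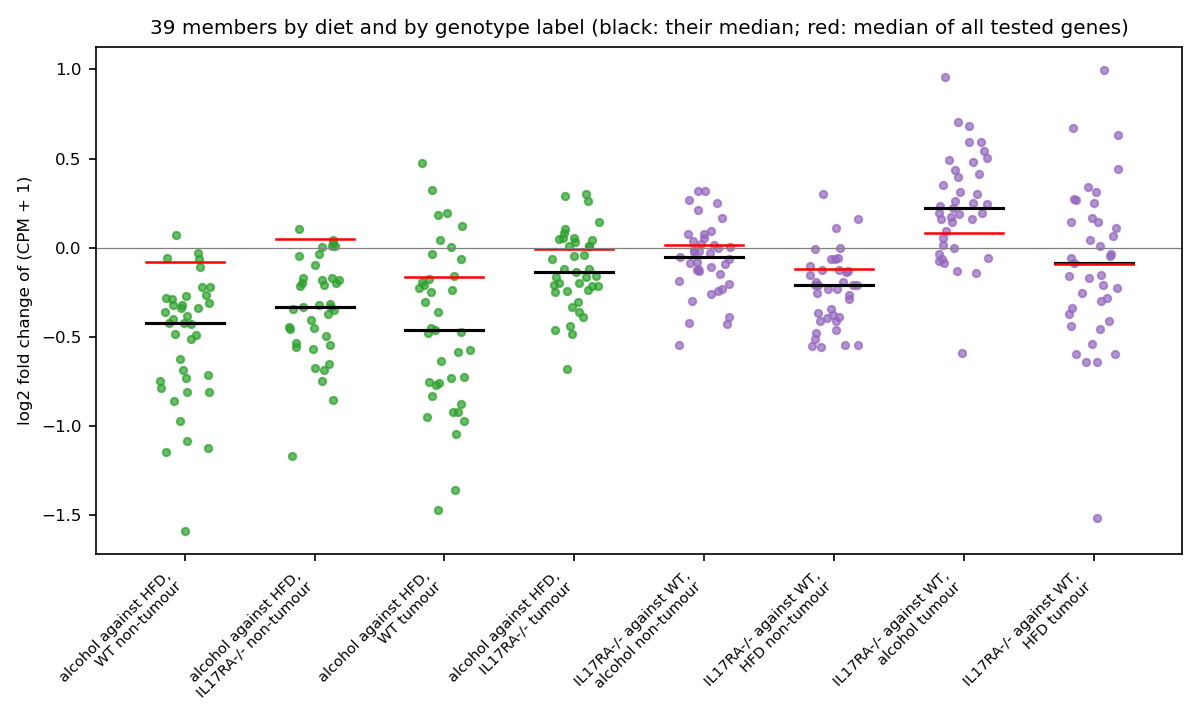
Log2 differences of CPM + 1 (y axis) of the 39 genes (points) in the 4 comparisons of alcohol with HFD (green) and the 4 comparisons of the genotype labels (purple); black lines are the medians of the 39 genes and red lines those of all tested genes. In non-tumour liver the black lines of the diet comparisons lie below the red ones, at -0.42 and -0.33.

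Nor did any member pass between genotype labels. The shares of all genes that passed were 0.00% in alcohol non-tumour liver, HFD non-tumour liver and alcohol tumours and 1.61% in HFD tumours, 0.603% higher and the rest lower. Members with an unadjusted p under 0.05 numbered 0, 0, 0 and 4, or 10.3% of the 39 in HFD tumours, beside 2.57%, 3.59%, 1.97% and 22.5% of all genes. Limma-voom called 0 members in each. In alcohol non-tumour liver the median log2 difference of libraries labelled IL17RA-/- against WT was -0.05 (24 of 39 below 0). Without non-tumour alcohol IL17RA-/- 2 and 4 it was 0.31, with 33 above 0, beside 0.09 for all genes. Those 2 were among the lowest libraries for many members, so leaving them out raises this median by construction and is no test of the label. In HFD non-tumour liver 36 of 39 were below 0, with a median of -0.21 beside -0.12 for all genes. The median of the members was -0.10 with the CPM rescaled by median ratios. Without the 4 libraries it was -0.02, with 22 below 0, beside -0.06 for all genes. In alcohol tumours the median was 0.22, with 31 above 0, beside 0.09 for all genes, and in HFD tumours -0.09, beside -0.09. For HFD tumours without the 4 libraries it was -0.49, with 32 below 0, beside -0.04 for all genes.

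In HFD tumours Tgfbr1 was 70.3, 87.4 and 79.5 CPM in the libraries labelled IL17RA-/- and 116, 149 and 109 CPM in WT. The labels did not overlap and the log2 difference was -0.64 ± 0.15, with an adjusted p of 0.0521 (limma); over the other settings the adjusted p ranged from 0.0444, under median-ratio rescaling, to 0.189, with only the 2 groups in the fit. In alcohol tumours the label difference of Tgfbr1 was -0.06 ± 0.14, and the interaction of diet and label had an adjusted p of 0.304 (limma). Fn1 was 5579, 6264 and 5983 CPM in libraries labelled IL17RA-/- and 2496, 4938 and 4528 CPM in WT (0.64 ± 0.27, adjusted p = 0.191), Vim 63.5, 76.1 and 78.7 CPM and 80.5, 168 and 97.8 CPM (-0.59 ± 0.26, 0.193), and Thy1 0.554, 0.558 and 1.84 CPM and 1.62, 8.92 and 5.13 CPM (-1.51 ± 0.46, 0.0937). Fn1 and Vim did not overlap between labels, and Thy1 did. The share of all genes without overlap between these labels was not counted, so Tgfbr1, Fn1 and Vim cannot be set against other genes. Of the 39 members 10.3% had an unadjusted p under 0.05 here, beside 22.5% of all genes (limma). The comparisons of tumour WT by diet and of HFD tumours by label share the 3 HFD WT tumours. Reln, averaged over both diets, had means of 576 CPM in tumours labelled IL17RA-/- and 348 CPM in WT tumours (0.84 ± 0.35, adjusted p = 0.319; 0.0301% of all genes passed). In the interactions of diet and label no member passed (0.00% of all genes in either tissue), with 0 unadjusted p-values under 0.05 in non-tumour liver and 2 (5.13%) in tumours, beside 4.12% and 13.2% of all genes, and limma-voom called 0.

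Within groups, several members varied together from library to library. Deviations of log2(CPM + 1) from the group means were correlated for 6 pairs in each tissue, 12 relations in all, with p-values from 100000 permutations within groups and Benjamini-Hochberg adjustment. All points of a tissue share the same libraries and hence their depth and cell makeup. In non-tumour liver (n = 16) Col4a1 and Col4a2 had r = 0.971 and rho = 0.959 (adjusted permutation p = 0.0003 and 0.00036), and Col1a1 and Col3a1 r = 0.946 and rho = 0.915 (0.00012 and 0.00108). In tumours (n = 13) the same pairs had r = 0.919 and rho = 0.896 (0.00631 and 0.0148) and r = 0.933 and rho = 0.885 (0.00631 and 0.00814). Without the 2 libraries farthest from the median of the first gene, r stayed between 0.866 and 0.956 in these 4 relations. Before adjustment the permutation p-values of r for these 2 pairs were 5e-05 and 1e-05 in non-tumour liver, the latter the smallest that 100000 permutations can give, and 0.00366 and 0.00368 in tumours. Both pairs thus varied together between livers of one group and between tumours of one group; the other collagen chains were not tested in this way.

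Col1a1 and Lrat, which went opposite ways between tissues, varied in the same direction within groups. Their r was 0.751 in non-tumour liver (rho 0.771; adjusted permutation p = 0.00462 and 0.003) and 0.722 in tumours (rho 0.731; 0.0145 and 0.0169), and 0.738 and 0.817 without the 2 farthest libraries. Before adjustment the permutation p-values of r were 0.00124 and 0.00964. Col1a1 and Timp1 were related in non-tumour liver (r = 0.835, rho = 0.837; 0.00462 and 0.00684) and not detectably in tumours (r = 0.418, rho = 0.357; 0.361 and 0.4). Col1a1 and Acta2 were not detectably related in non-tumour liver (r = 0.302, rho = 0.276; 0.361 and 0.4) or in tumours (r = 0.469, rho = 0.445; 0.354 and 0.333). Pdgfrb and Des had r = 0.748 and rho = 0.756 in non-tumour liver (0.00494 and 0.00814) and r = 0.737 and rho = 0.566 in tumours (0.0231 and 0.101); the tumour value was 0.645 without the 2 farthest libraries and then did not pass (adjusted permutation p = 0.101). Unadjusted permutation p-values of r, non-tumour before tumour, were 0.00154 and 0.361 for Timp1, 0.351 and 0.295 for Acta2, and 0.00206 and 0.0173 for Pdgfrb and Des.

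**Figure D5:**
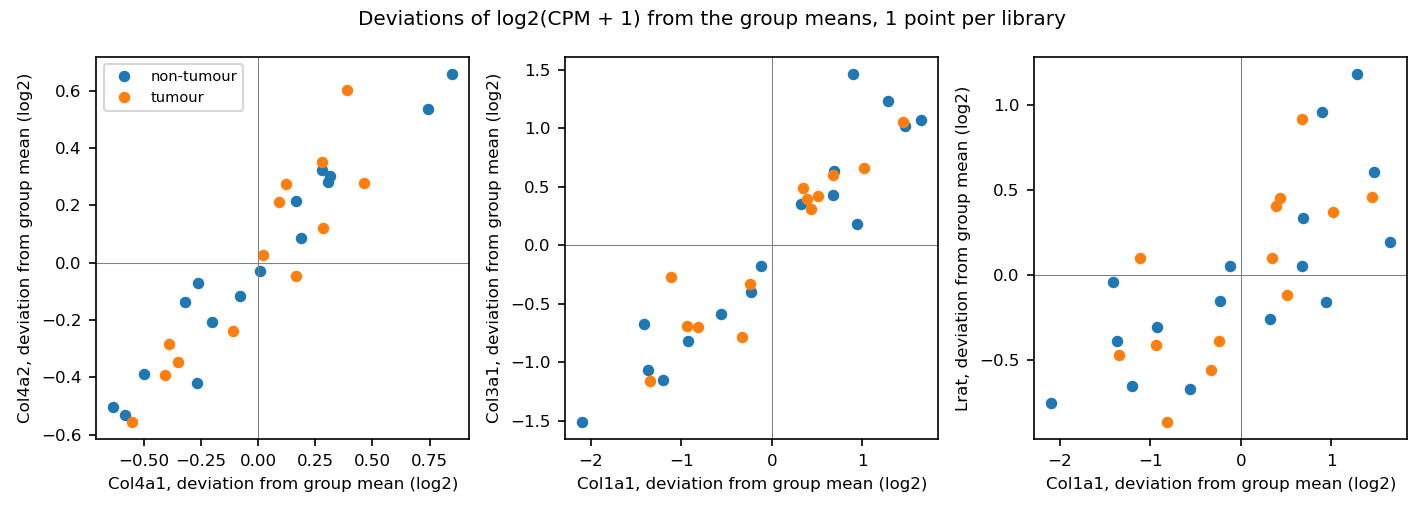
Deviation of log2(CPM + 1) from the group mean for pairs of genes, 1 point per library, blue for non-tumour liver and orange for tumour. Col4a1 with Col4a2 and Col1a1 with Col3a1 lie close to a line in both tissues (r between 0.919 and 0.971), and Col1a1 with Lrat scatters more widely (r = 0.751 and 0.722).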

How the data were processed

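PolyA-selected stranded libraries were made from total RNA, per the labels' protocols. The submitters' processing notes list GRCm38 as the build and RSEM 1.3.0 and STAR 2.5.1a as tools, and the annotation used is not given in the sources used here. A single table deposited by the authors holds CPM per gene (22187 IDs, of which 21653 had a symbol in GENCODE M21), scaled to a common total per library. Counts were recovered from the steps of the values, of which 83.1% to 85.9% were whole within 0.002 counts. CPM is not corrected for length. The floor covers counting error only, while the SDs and standard errors reflect the spread between libraries.

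Differences were tested with limma 3.58.1 (R 4.3.3) with a variance trend on log2(CPM + 1), two-sided. The test covered genes that reached 1 CPM in 3 or more of the fitted libraries, and p-values were adjusted over all of them; an adjusted p under 0.05 was a call. Tissues were compared on all 29 libraries, diets and labels within the 16 non-tumour or 13 tumour libraries. The script was tested on simulated data. Members and lists were chosen with earlier results of these data known. All members could be named; of each of 15 other lists, the called genes that rose most and fell most, at most 2 each and with 5 CPM or more in the higher group, were named, besides defining cell markers. The diet and label comparisons averaged over the other factor, the fits without non-tumour alcohol IL17RA-/- 2 and 4, and the other settings for the lists were added after seeing the data. The 3 genes absent from the table were left out, and some genes that the rule would name are not reported here.

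Same-numbered libraries correlated over 0.1 in every pair only between the diets in WT non-tumour liver (0.338, 0.268 and 0.134), where the replicate numbers may pair the libraries although the labels state no pairing. The fit without the block is given there, and a fit with the replicate block also called 0 members.

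The settings tried were pseudocounts of 0.1 and 5, no filter, median-ratio rescaling, limma-voom on the recovered counts, only the groups compared, a replicate block, and fits without each library or without 4 together.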

Additional observations from a re-analysis of the deposited data

Results flagged for a closer look

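In groups of 4 or 5 libraries, 117 checks of 1 member in 1 group were made for a library that lies far from the rest, and chance flags about 1 in 20. There were 4 such values. Non-tumour alcohol WT 1 stood out for Col4a1, at 201 CPM with the others at 88.6 to 111 CPM, for Mmp14, at 35.4 CPM with the others at 18.6 to 21.9 CPM, and for Timp2, at 15.0 CPM with the others at 8.58 to 9.61 CPM. That liver also had the highest sums in non-tumour liver of the other stellate cell genes, at 912 CPM, and of the endothelial markers, at 1051 CPM. Tumour alcohol IL17RA-/- 6 stood out for Col5a2, at 60.9 CPM with the others at 26.6 to 29.6 CPM.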

How the results depend on the processing

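Over the 35 other settings of the comparison averaged over 4 strata, 28 to 32 members passed, and no called member changed direction. Loxl1 lost its call in 14 settings, Mmp2 in 8 and Pdgfrb in 2; the other 27 called members lost theirs in 0. The counts within single strata were less stable. In alcohol WT, with 12 calls, they ran from 8 to 20 when 1 library was left out, in alcohol IL17RA-/- (22 calls) from 15 to 24, in HFD WT (8 calls) from 3 to 13 and in HFD IL17RA-/- (13 calls) from 8 to 16. With only the 2 groups compared in the fit, 2 members passed in HFD WT and 21 in HFD IL17RA-/-. In the comparisons of diet and genotype label and their interactions, 0 members passed under any setting, except Tgfbr1, 1 member called lower, under median-ratio rescaling in HFD tumours. The correlation of Col1a1 and Lrat in tumours was 0.635 after rescaling (adjusted permutation p = 0.0585), that of Pdgfrb and Des 0.662 (0.0539), and 0.645 without the 2 farthest libraries (0.101). The cause of these changes was not tested. Genes near the floor of 0.311 to 0.934 CPM, such as Timp1, Lox and Thy1 in non-tumour liver, are limited by depth.

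With the replicate number as a block, 4 members passed in the tissue comparison in alcohol WT and 7 in alcohol IL17RA-/-, where only 2 numbers are shared and the paired libraries correlated at 0.170 and -0.0713 and at 0.0811 and -0.0399. The block changed no other count of called members. No paired analysis was possible for the tissue comparisons on HFD or for the average over strata because the tissues share no replicate numbers on HFD.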
